A study of Mus musculus with 4 samples.

Results

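The genes described here encode the CD3 signalling chains of the T cell receptor complex (Cd3g, Cd3d and Cd3e), the T cell surface receptor CD5 (Cd5), the granule protease granzyme A (Gzma) and integrin alpha E (Itgae), which marks lymphocytes that live within the gut epithelium. They were taken by gene symbol from the deposited table, which matched 6 of 6 and holds 4121 genes in all. The RNA came from the distal colon of C57BL/6 mice with colitis, either Elf4-KO (Elf4-/-, lacking an Ets family transcription factor) or WT. All mice were 8 weeks old and had been given 3% dextran sulfate sodium (DSS), a polymer that damages the colon epithelium, and the inflamed tissue was taken at day 6, so the WT mice were diseased too. Each genotype had 2 samples. The sources used here state neither whether these were separate animals nor how the Elf4 allele was made.

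In the receptor complex, an alpha and a beta chain, or a gamma and a delta chain, recognise the ligand, and the CD3 chains carry the signal into the cell through tyrosines that the kinase Lck phosphorylates. ZAP-70 then binds these tyrosines and phosphorylates the adaptor LAT. In the gut, many T cells lie between epithelial cells. Integrin alpha E pairs with the beta 7 chain and holds them to E-cadherin on those cells, and granzyme A is stored in their cytotoxic granules.

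Each gene has 1 FPKM value per genotype in it (fragments scaled by transcript length and library size, so a level per length). Both samples of a genotype are combined in that value, so no SD, n or read depth stands behind any value. Genes are listed where the authors called them different, which by the values means a q no higher than 0.05 and a difference of 2-fold or more, so "rose" and "fell" below rest on that call and a gene that is not listed has no value here. Unless another q is given, a named gene had q = 0.000372 in the authors' deposited table, its smallest value, shared by 2233 genes. Elf4 itself had 3.51 FPKM in Elf4-KO colon against 16.4 FPKM in WT colon, a fall of 4.68-fold that left 21.4% of the WT level.

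All 6 genes fell in Elf4-KO colon, between 2.09-fold for Cd5 and 5.47-fold for Itgae. Among all listed genes 52.0% were lower in Elf4-KO and 48.0% higher, and the genes were picked with these values known, so the count of 6 is a description. A fall of at least 4-fold was seen in 3 of the 6 and in 24.5% of all listed genes, or 1011 of the 2141 that fell. A fall with a q no higher than 0.01 in the authors' deposited table was seen in 5 of the 6. It was seen in 41.9% of all listed genes, or 1725 of the 2141 that fell. The median fold of the 6 was 3.68, beside 3.71 for all listed genes that fell and had a value above 0 in both genotypes. On the log2 ratio of FPKM + 1, the median of the 6 was -1.57. It was -1.53 for all listed genes that fell and -0.76 for all listed genes.

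The CD3 chains form pairs, gamma with epsilon and delta with epsilon, and alpha beta receptors carry both pairs. Cd3g (ENSMUSG00000002033), the gamma chain, had 5.16 FPKM in Elf4-KO colon and 22.1 FPKM in WT colon, a 4.29-fold fall. Cd3e (ENSMUSG00000032093), the epsilon chain shared by both pairs, had 4.34 FPKM in Elf4-KO and 13.3 FPKM in WT, a 3.07-fold fall. Cd3d (ENSMUSG00000032094), the delta chain, had 2.86 FPKM in Elf4-KO and 8.00 FPKM in WT, a 2.80-fold fall (q = 0.00335 in the authors' deposited table). Both genotypes thus had the same order of levels, gamma above epsilon above delta. The gamma level was 1.80 times the delta level in Elf4-KO colon and 2.77 times in WT colon, and the epsilon level was 1.52 times the delta level in Elf4-KO and 1.67 times in WT. Summed over the 3 chains, 12.4 FPKM in Elf4-KO stood against 43.5 FPKM in WT, which left 28.4%.

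Cd5 (ENSMUSG00000024669), an inhibitory receptor that tunes the strength of receptor signalling, had 1.75 FPKM in Elf4-KO colon and 3.65 FPKM in WT colon. Its fold of 2.09 and its q of 0.0476 in the authors' deposited table both lay close to the limits for being listed. Only 4.62% of the listed genes that fell had a smaller fold, counting genes at 0 in Elf4-KO as larger. The fall of Cd5 was thus the smallest of the 6, and 47.9% of the WT level was left.

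Gzma (ENSMUSG00000023132), a serine protease of cytotoxic granules, had the highest level of the 6 in both genotypes, 12.3 FPKM in Elf4-KO and 55.3 FPKM in WT, a 4.51-fold fall. Itgae (ENSMUSG00000005947) had 1.05 FPKM in Elf4-KO and 5.74 FPKM in WT, the largest fold of the 6, with 18.3% of the WT level left. It was the lowest of the 6 in Elf4-KO colon, while Cd5 was the lowest in WT colon. Set against Cd3e within a genotype, the Gzma level was 2.83 times as high in Elf4-KO and 4.14 times in WT. The Itgae level was 0.242 times that of Cd3e in Elf4-KO and 0.430 times in WT, and the Cd5 level was 0.403 times in Elf4-KO and 0.274 times in WT. Gzma and Itgae therefore fell more than Cd3e on these values, and Cd5 less, and no error can be given for any of these ratios.

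**Figure D1:**
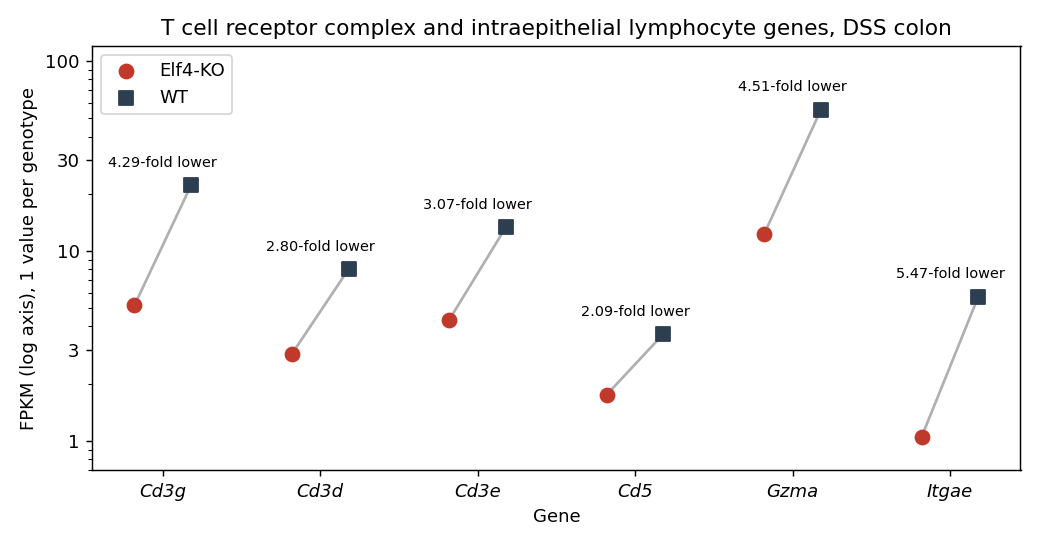
FPKM (log axis) of the 6 genes in Elf4-KO colon (circles) and WT colon (squares), 1 value per genotype, with the fold written above each pair. Every Elf4-KO value lies below its WT value, by 2.09-fold for Cd5 and by 5.47-fold for Itgae, and Gzma is highest in both genotypes.

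By fold, Itgae stood above 65.4% of the listed genes that fell, Gzma above 58.2%, Cd3g above 56.0%, Cd3e above 38.0% and Cd3d above 30.9%. None of the 6 was thus among the largest falls of the table. The WT levels of the 6 genes lay between the 28.6 percentile of all listed genes for Cd5 and the 81.7 percentile for Gzma. In Elf4-KO colon they lay between the 12.5 percentile for Itgae and the 59.0 percentile for Gzma.

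**Figure D2:**
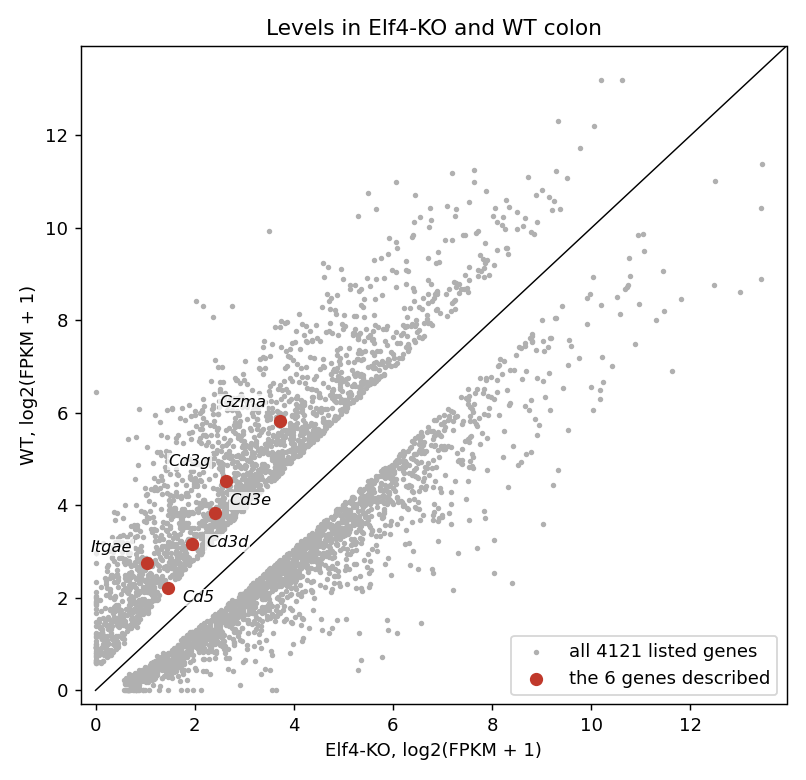
Levels as log2(FPKM + 1) in Elf4-KO colon (horizontal) and WT colon (vertical) for all 4121 listed genes (grey) and the 6 genes described (red), with the line of equal levels. The empty band along the line is the authors' limit of 2-fold, and the 6 genes lie above the line, with Cd5 at the edge of the band.

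Cd3g, Cd3d and Cd3e are neighbours on chromosome 9, within 40.1 kb (chr9:44969572-45009627, GRCm38). Cd3g (minus strand) and Cd3d (plus strand) point away from each other, with starts 1355 bases apart, and Cd3e (minus strand) follows after 11.4 kb. Cd5 lies at chr19:10718143-10738974 (minus strand), Gzma at chr13:113093825-113100979 (minus strand) and Itgae at chr11:73090583-73147446 (plus strand). The locus of the table matched the annotated gene for the CD3 genes and Itgae and differed from it at both ends for Cd5 and at 1 end for Gzma.

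The genes around the CD3 cluster did not all move with it. Within 200 kb of the Cd3g start there were 15 annotated protein-coding genes, of which 8 were listed, 6 lower and 2 higher. Beside the CD3 genes, those lower were Mpzl2, an adhesion gene with 3.10 FPKM in Elf4-KO and 21.2 FPKM in WT, Mpzl3 with 5.07 FPKM in Elf4-KO and 16.8 FPKM in WT (q = 0.000998 in the authors' deposited table), and Tmprss4, a membrane protease gene with 5.52 FPKM in Elf4-KO and 77.6 FPKM in WT. Jaml, listed under its older symbol Amica1, encodes a junctional adhesion molecule of leukocytes and rose to 34.0 FPKM in Elf4-KO, against 6.68 FPKM in WT. The listed locus of Jaml is 1.92 times as long as the annotated gene and also covers Scn2b, which is not listed. Whether its fragments came from Jaml is therefore uncertain. Scn4b, a sodium channel subunit gene, had 0.500 FPKM in Elf4-KO and 0.146 FPKM in WT (q = 0.0345 in the authors' deposited table). These neighbours were chosen by position after values were known.

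**Figure D3:**
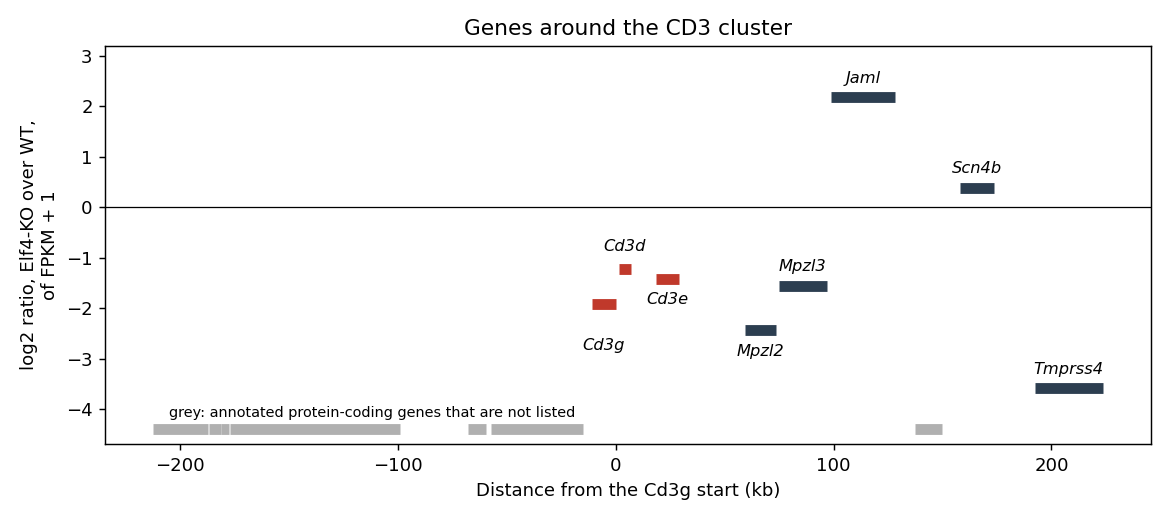
Log2 ratio of FPKM + 1, Elf4-KO over WT, for the listed genes around the CD3 cluster, drawn at their distance in kb from the Cd3g start (bars span the annotated gene; red marks the CD3 genes, dark blue the others). Grey bars are annotated protein-coding genes that are not listed. The 3 CD3 genes lie between -1.91 and -1.22, Jaml at 2.19 and Tmprss4 at -3.59.

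Since Elf4 belongs to the Ets family, whose members bind a GGAA core, the 250 bases before the start of each gene are shown for the 5 of the 6 genes that matched the promoter table (RefSeq, GRCm38.p6). Each is written along the gene's own strand and ends at the base before the start. Capitals mark GGAA or its reverse complement TTCC, and CACCTG or its reverse complement CAGGTG, a form of the E-box bound by E proteins and related factors.
Cd3g: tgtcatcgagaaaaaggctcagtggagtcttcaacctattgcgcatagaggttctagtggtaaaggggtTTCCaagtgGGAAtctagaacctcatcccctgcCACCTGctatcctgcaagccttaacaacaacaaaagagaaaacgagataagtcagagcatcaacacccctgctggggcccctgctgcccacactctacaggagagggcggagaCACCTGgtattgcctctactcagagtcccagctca
Cd3d: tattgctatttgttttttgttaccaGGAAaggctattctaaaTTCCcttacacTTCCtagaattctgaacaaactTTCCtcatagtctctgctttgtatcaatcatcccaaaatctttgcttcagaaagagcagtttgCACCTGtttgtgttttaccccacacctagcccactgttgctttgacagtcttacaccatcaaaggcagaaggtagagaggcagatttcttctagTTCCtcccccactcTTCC
Cd3e: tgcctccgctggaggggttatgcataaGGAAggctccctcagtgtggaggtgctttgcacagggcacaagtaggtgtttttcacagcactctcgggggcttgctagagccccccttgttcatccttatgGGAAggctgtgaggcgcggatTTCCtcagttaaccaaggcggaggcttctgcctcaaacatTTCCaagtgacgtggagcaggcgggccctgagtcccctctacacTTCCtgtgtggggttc
Cd5: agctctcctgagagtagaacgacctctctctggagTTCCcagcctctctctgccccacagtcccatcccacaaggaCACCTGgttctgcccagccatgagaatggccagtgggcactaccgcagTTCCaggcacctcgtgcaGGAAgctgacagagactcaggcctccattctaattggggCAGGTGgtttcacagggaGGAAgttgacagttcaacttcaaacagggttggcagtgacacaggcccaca
Gzma: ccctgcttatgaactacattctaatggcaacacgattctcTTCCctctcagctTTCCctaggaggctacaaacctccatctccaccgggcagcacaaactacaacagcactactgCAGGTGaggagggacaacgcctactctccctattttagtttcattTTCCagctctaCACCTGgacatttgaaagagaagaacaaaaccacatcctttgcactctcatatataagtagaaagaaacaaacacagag
These windows are chr9:44980432-44980681 (minus strand) for Cd3g, chr9:44981536-44981785 (plus strand) for Cd3d, chr9:45009612-45009861 (minus strand) for Cd3e, chr19:10738975-10739224 (minus strand) for Cd5 and chr13:113100982-113101231 (minus strand) for Gzma. GGAA on either strand was found in 5 of 5 windows, with 2 sites for Cd3g, 6 for Cd3d, 5 for Cd3e, 4 for Cd5 and 3 for Gzma. It is near universal, since 93.4% of the 32851 promoters of the same length hold it, with a mean of 2.91 sites. The longer AGGAAG, which contains GGAA, on either strand was found in Cd3d (1 site), Cd3e (2 sites) and Cd5 (2 sites), and in 29.5% of all promoters. CACCTG on either strand was found in 4 of the 5 windows, with 2 sites each for Cd3g, Cd5 and Gzma and 1 site for Cd3d, beside 17.2% of all promoters. This motif does not contain GGAA or TTCC. It was chosen after these sequences were read, so its count in them is a description. The matches are letters only, and no binding was measured.

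Beside the 3 CD3 genes, 10 genes of the receptor complex were considered, of which 7 were listed, 6 lower and 1 higher (median log2 ratio -1.35). Their summed level was 38.5 FPKM in Elf4-KO and 101 FPKM in WT. With the CD3 genes, 10 of 13 were listed, 9 lower and 1 higher. The constant segment of the alpha chain, Trac, had 11.3 FPKM in Elf4-KO and 27.7 FPKM in WT, a 2.45-fold fall (q = 0.00335 in the authors' deposited table). The beta chain segment Trbc1 had 6.87 FPKM in Elf4-KO and 24.3 FPKM in WT. Trbc2 had 12.6 FPKM in Elf4-KO and 33.7 FPKM in WT (q = 0.00263 in the authors' deposited table). Both beta segments are near-identical, so the split of reads between them is uncertain.

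The gamma and delta chain genes went opposite ways. Tcrg-C1 had 0.759 FPKM in Elf4-KO and 4.37 FPKM in WT (q = 0.0145 in the authors' deposited table). Tcrg-C2 had 1.97 FPKM in Elf4-KO and 5.82 FPKM in WT (q = 0.0182 in the authors' deposited table), and Tcrg-C4 had 0.697 FPKM in Elf4-KO and 3.87 FPKM in WT (q = 0.0109 in the authors' deposited table). These gamma segments are close copies, so their single values are uncertain too. Trdc, the constant segment of the delta chain, rose to 4.33 FPKM in Elf4-KO, against 1.02 FPKM in WT. Its listed locus is 3.49 times as long as the annotated gene, so whether its fragments came from Trdc is uncertain. Cd247, the zeta chain, Trat1 and Ptcra were not listed.

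Surface receptors of T cells fell and rose. Of 20 coreceptor and surface genes, Cd5 included, 7 were listed, 4 lower and 3 higher (median log2 ratio -0.76). Beside Cd5, those that fell were Cd7, Cd96 and Cd8a. Cd8a, the coreceptor chain for class I ligands, had 3.41 FPKM in Elf4-KO and 9.49 FPKM in WT. Cd96, a nectin-binding receptor of T and NK cells, had 0.684 FPKM in Elf4-KO and 3.76 FPKM in WT, a 5.50-fold fall. Cd7, an immunoglobulin family receptor, had 4.89 FPKM in Elf4-KO and 26.3 FPKM in WT, but its listed locus is 8.59 times as long as the annotated gene. The inhibitory receptor genes Ctla4 and Pdcd1 and the interleukin-7 receptor gene Il7r rose. Ctla4 had 26.4 FPKM in Elf4-KO and 5.45 FPKM in WT, a 4.84-fold difference. Pdcd1 had 4.43 FPKM in Elf4-KO and 2.05 FPKM in WT (q = 0.0323 in the authors' deposited table). Il7r had 10.3 FPKM in Elf4-KO and 5.13 FPKM in WT (q = 0.00650 in the authors' deposited table). Cd4, Cd2, Cd6, Cd8b1, Cd28 and Thy1 were among the 13 that were not listed.

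Listed genes that carry the receptor's signal fell, with 1 exception. Of 22 such genes 8 were listed, 7 lower and 1 higher (median log2 ratio -0.95). The kinase gene Lck had 6.19 FPKM in Elf4-KO and 15.9 FPKM in WT (q = 0.00384 in the authors' deposited table). Zap70 had 2.15 FPKM in Elf4-KO and 5.05 FPKM in WT (q = 0.0273 in the authors' deposited table), and the adaptor gene Lat had 5.32 FPKM in Elf4-KO and 14.1 FPKM in WT (q = 0.00312 in the authors' deposited table). Lck fell 2.57-fold, Zap70 2.35-fold and Lat 2.64-fold, each less than Cd3d, Cd3e or Cd3g on these values. The adaptor gene Skap1 had 3.23 FPKM in Elf4-KO and 7.21 FPKM in WT (q = 0.0437 in the authors' deposited table). Themis, needed for T cell maturation, had 0.652 FPKM in Elf4-KO and 1.91 FPKM in WT (q = 0.00609 in the authors' deposited table). Sh2d1a, the adaptor SAP, had 0.865 FPKM in Elf4-KO and 3.36 FPKM in WT (q = 0.0237 in the authors' deposited table), but its listed locus is 34.5 times as long as the annotated gene. Ptpn22, a phosphatase that restrains receptor signalling, rose to 27.5 FPKM in Elf4-KO, against 10.8 FPKM in WT (q = 0.00156 in the authors' deposited table).

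Beside Gzma, 19 cytotoxic and NK receptor genes were considered, of which 7 were listed, 6 lower and 1 higher (median log2 ratio -1.24). Their summed level was 649 FPKM in Elf4-KO and 463 FPKM in WT, most of it from Srgn in Elf4-KO and from Ccl5 and Srgn in WT. Nkg7, a granule membrane gene, had 6.89 FPKM in Elf4-KO and 24.2 FPKM in WT. Ctsw, a cathepsin gene of cytotoxic lymphocytes, had 2.12 FPKM in Elf4-KO and 8.81 FPKM in WT. The NK receptor gene Klrd1 had 7.21 FPKM in Elf4-KO and 16.7 FPKM in WT (q = 0.0159 in the authors' deposited table). Among secreted factors, the chemokine gene Ccl5 had 103 FPKM in Elf4-KO and 246 FPKM in WT, and Ifng, for interferon gamma, had 0.272 FPKM in Elf4-KO and 4.51 FPKM in WT (q = 0.0204 in the authors' deposited table). Gzmc, another granzyme gene, was listed at 0 in Elf4-KO and 0.927 FPKM in WT. Srgn, the granule proteoglycan serglycin, which myeloid and mast cells also make, rose to 529 FPKM in Elf4-KO, against 162 FPKM in WT. Gzmb, Gzmk and Prf1, for perforin, were not listed.

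The genes of residence within the epithelium and of homing were mostly not listed. Of 19, 5 were listed, 2 lower and 3 higher (median log2 ratio 1.68). Beside Itgae, the chemokine receptor gene Cxcr3 fell to 2.63 FPKM in Elf4-KO, against 11.3 FPKM in WT. S1pr1, a receptor for leaving tissue that vessels express as well, had 54.5 FPKM in Elf4-KO and 16.1 FPKM in WT. Jaml, which rose as well, has a listed locus 1.92 times as long as the annotated gene. Itgb7, the partner chain of integrin alpha E, and Cd160, Ccr9 and Gpr18 were not listed. Of 10 markers of intraepithelial lymphocytes, 3 were listed and 3 were lower, namely Itgae, Gzma and Cd8a, of which 2 are among the 6 genes, so the name of this cell type rests on few genes here. Of 12 general T cell markers, 7 were listed and lower, of which 4 are among the 6 genes, and of the 8 others 3 were listed and lower (Lck, Zap70 and Lat). Over the 5 T cell lists together, 38 of 94 genes were listed, 29 lower and 9 higher, and 23 lower and 9 higher without the 6 genes. Among all listed genes 52.0% were lower. The summed level of these 38 genes was higher in Elf4-KO, 943 FPKM against 832 FPKM in WT. Srgn alone held 529 FPKM of it in Elf4-KO and 162 FPKM in WT.

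**Figure D4:**
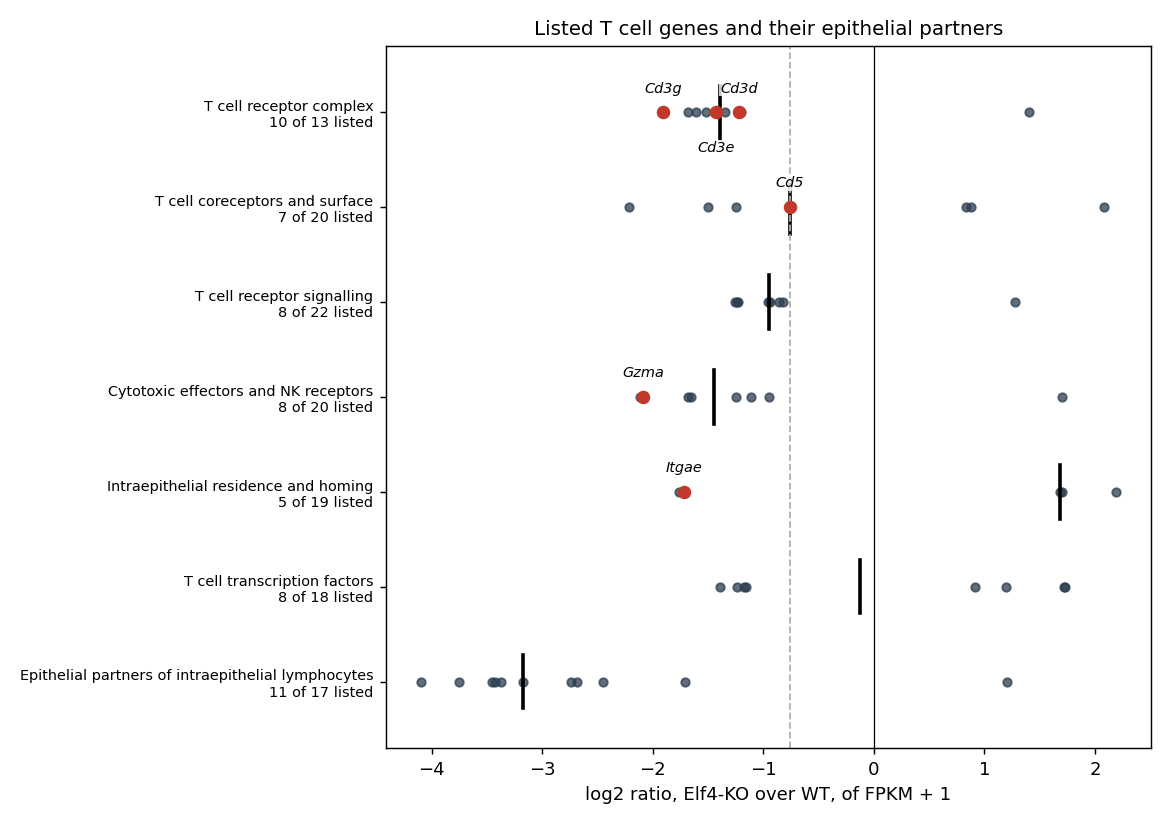
Log2 ratio of FPKM + 1, Elf4-KO over WT, of each listed gene in 7 lists (red, the 6 genes described; blue, other genes; black bar, list median; dashed line, median of all listed genes at -0.76). The receptor complex has 9 genes below 0 and 1 above, the residence and homing list 2 below and 3 above, and the epithelial partners 10 below and 1 above.

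The epithelial partners of these lymphocytes fell, with 1 exception among those listed. Of 17 partner genes 11 were listed, 10 lower and 1 higher (median log2 ratio -3.18). Epithelial markers in general, described below, fell as well, 16 of 16 with a median log2 ratio of -3.54. Cdh1 and Epcam are in both lists, so the fall is not particular to partners of lymphocytes. Cdh1, the E-cadherin that integrin alpha E binds, had 20.8 FPKM in Elf4-KO and 238 FPKM in WT, an 11.5-fold fall beside 5.47-fold for Itgae. The list held 4 butyrophilin-like genes, of which Btnl1 and Btnl6 act on intraepithelial gamma delta T cells in mice, and each of these 4 fell. Btnl6 had 5.92 FPKM in Elf4-KO and 70.8 FPKM in WT, Btnl4 had 2.34 FPKM in Elf4-KO and 29.2 FPKM in WT, and Btnl1 had 0.448 FPKM in Elf4-KO and 8.29 FPKM in WT. Btnl2 had 0.839 FPKM in Elf4-KO and 5.02 FPKM in WT. Pseudogene copies of this family are listed too, so single values within it are uncertain. Il18 fell 18.3-fold and the mucosal chemokine gene Ccl28 20.9-fold, though the listed locus of Il18 is 1.96 times as long as the annotated gene. Il15ra, which presents interleukin-15 to these lymphocytes, rose to 31.7 FPKM in Elf4-KO, against 13.2 FPKM in WT, and Il15 was not listed.

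Markers of other cell types moved in the same tissue. Of 16 epithelial markers, genes of the labelled tissue, 16 were listed and 16 were lower, with a summed level of 839 FPKM in Elf4-KO and 10890 FPKM in WT and none at 0. That sum was 13.0-fold lower in Elf4-KO, while the sum of the 6 genes, 27.4 FPKM in Elf4-KO and 108 FPKM in WT, was 3.94-fold lower. Krt19 and Krt8, both keratin genes, had the largest epithelial falls in log2 ratio, at -4.26 and -4.01. Of 12 B cell markers 4 were listed and 4 were lower, with a summed level of 12.4 FPKM in Elf4-KO and 42.9 FPKM in WT. Of 12 pan-leukocyte genes 1 was listed, Ptprcap. It had 21.8 FPKM in Elf4-KO and 45.0 FPKM in WT (q = 0.0292 in the authors' deposited table), and its listed locus is 2.78 times as long as the annotated gene. Ptprc, the CD45 gene carried by all leukocytes, was not listed.

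The other lists held genes that rose. Of 12 macrophage markers 5 were listed and 5 were higher (542 FPKM summed in Elf4-KO, 155 FPKM in WT). Of 12 neutrophil markers 10 were listed, 8 higher and 2 lower (4096 FPKM in Elf4-KO, 1196 FPKM in WT). The 2 lower were Ly6g, with 146 FPKM in Elf4-KO and 854 FPKM in WT, and Ltf, with 2.05 and 14.4 FPKM. Most of the Elf4-KO sum came from S100a9 (1888 FPKM) and S100a8 (1202 FPKM), which rose. Of 10 fibroblast genes 6 were listed and 6 were higher (4332 FPKM in Elf4-KO, 1153 FPKM in WT). Of 12 innate lymphoid genes 9 were listed, 7 higher and 2 lower (393 FPKM in Elf4-KO, 149 FPKM in WT). Of 10 mucosal mast cell genes 4 were listed, 2 higher and 2 lower (73.3 FPKM in Elf4-KO, 64.6 FPKM in WT). The 2 lower were the mast cell protease genes Mcpt1, with 3.99 FPKM in Elf4-KO and 31.7 FPKM in WT, and Mcpt2, with 1.06 and 17.9 FPKM. The 2 higher were Hdc, with 50.5 FPKM in Elf4-KO and 7.06 FPKM in WT, and Kit, with 17.7 and 7.95 FPKM (q = 0.00184 in the authors' deposited table). Most of the Elf4-KO sum thus came from Hdc. None of these listed markers was at 0 in either genotype. In bulk tissue, fewer cells of a type and less RNA per cell cannot be told apart, and the part of these cell types in the falls of the 6 genes was not tested.

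**Figure D5:**
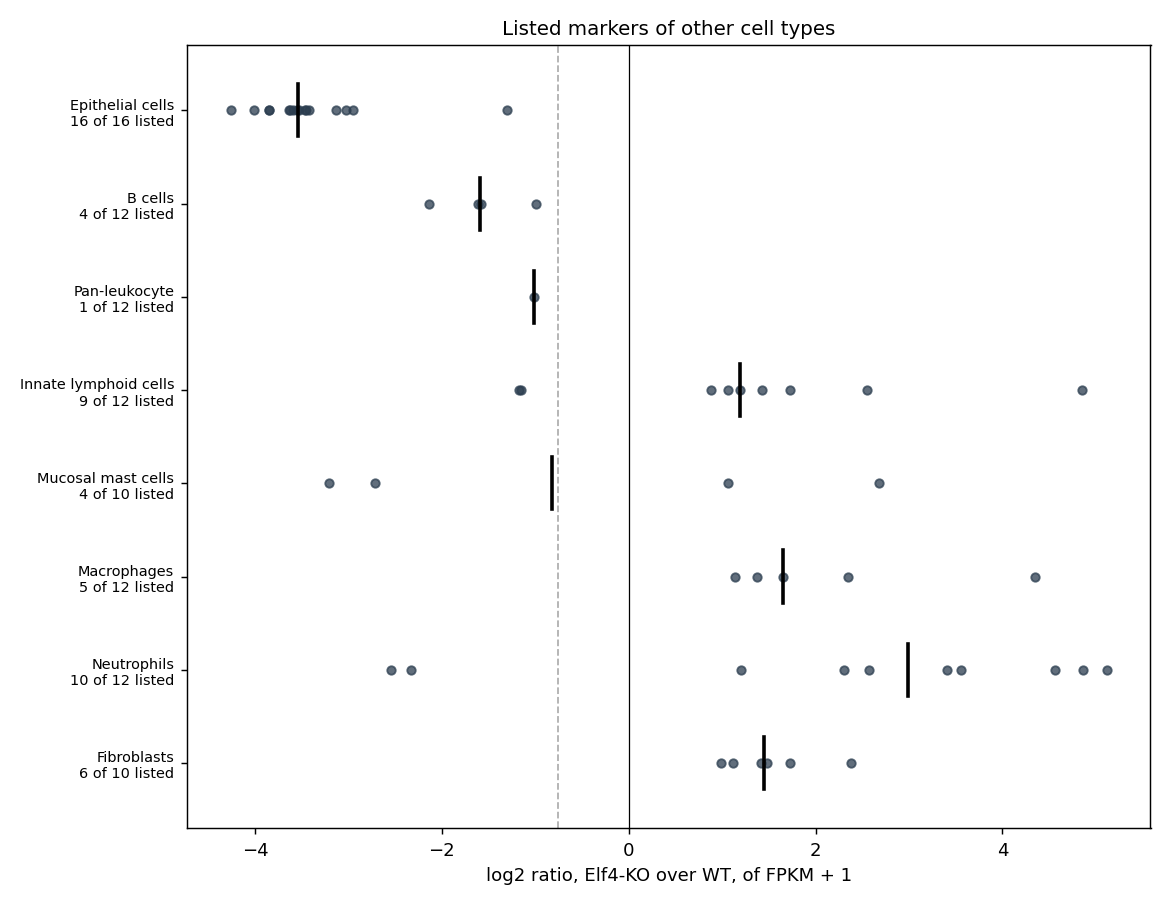
Log2 ratio of FPKM + 1, Elf4-KO over WT, of each listed marker of 8 cell types (blue points; black bar, list median; dashed line, median of all listed genes at -0.76). The 16 epithelial and 4 B cell markers lie below 0, and the 5 macrophage and 6 fibroblast markers above 0.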

How the data were processed

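The 4 samples, 2 per genotype, were grouped by their titles, and the deposited table has 1 FPKM column per genotype, assigned through the sample descriptions. The authors' FPKM values, per the file headers, are scaled by length and by mapped fragments. The deposited p-value and q-value columns hold a comparison the authors made. The submitters' processing notes name Bowtie 0.12.2, Cufflinks 2.2.1 and build mm8 and give no roles. Of 4121 gene identifiers, 4116 were found in GENCODE M21 (GRCm38), with ends equal for 76.8%, so coordinates are given on GRCm38, counting from 1. With 1 value per genotype, no test, SD or normalization could be computed, and depth and counting error are unknown.

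Folds are ratios of FPKM. Log2 ratios, Elf4-KO over WT, use a pseudocount of 1, which understates the change of low genes. No fold is given against a 0, which can be a failed estimate. The 6 genes and the 15 gene lists were chosen with earlier results of these data known. The genes open to naming were the 6, Elf4, every listed gene of the 5 T cell lists, the 2 largest log2 ratios of each other list and the 5 genes nearest to the CD3 mean, and others were chosen after their values were seen. The counts of the lists include 3 genes that are not reported here. Python 3.11.15, numpy 2.4.6, pandas 2.3.3 and matplotlib 3.10.9 were used, and list and motif counts were tested on simulated data. The alternatives tried were q of at most 0.01, 4-fold or more, FPKM minimums of 1 and 5, other pseudocounts, centring on the table median and leaving out each gene.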

Additional observations from a re-analysis of the deposited data

How the results depend on the processing

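No paired analysis was possible because each genotype has 1 combined value, and for the same reason leaving out each sample and another normalization were not run. With no replicate spread, a shift of more than 1.5 times was counted as a move, which 23 of 76 alternatives did and 53 did not. No alternative turned the direction of a log2 ratio, which among them only the centring could have done. Keeping at least a 4-fold difference left 3 of the 6 genes (Cd3g, Gzma and Itgae) and 1011 of the 2141 listed genes that fell, fewer by construction. It left 3 lower and 1 higher genes of the receptor complex, 2 lower and 1 higher surface genes, and 0 lower and 0 higher signalling genes. Also left were 4 lower and 0 higher cytotoxic genes, and 2 lower and 1 higher homing genes. A q of at most 0.01 left 5 of the 6 genes, without Cd5, and 3 lower signalling genes. At least 5 FPKM in the higher genotype left 5 of the 6 genes, again without Cd5, with 0 higher genes of the complex (Trdc dropped out), 2 lower surface genes and 4 lower signalling genes. Centring on the median of all listed genes, a shift of 0.76, gave log2 ratios of -0.46 for Cd3d, -0.67 for Cd3e, -1.15 for Cd3g, -0.0017 for Cd5, -1.33 for Gzma and -0.96 for Itgae, with a median of -0.82 over the 6. That median rests on genes picked for having changed. For Itgae, a low gene, pseudocounts of 0.1 and 0 gave -2.35 and -2.45, against -1.72 with 1. Leaving out each of the 6 genes gave medians between -1.72 and -1.43.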

Other observations

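T cell transcription factors moved both ways. Of 18 such genes 8 were listed, 4 lower and 4 higher (median log2 ratio -0.12). Bcl11b, needed for T cell identity, had 0.692 FPKM in Elf4-KO and 3.00 FPKM in WT, and Tbx21, the T-bet gene of interferon gamma producing cells, had 0.407 FPKM in Elf4-KO and 2.14 FPKM in WT (q = 0.00238 in the authors' deposited table). Zbtb7b, a factor of CD4 T cell identity, also fell, 2.72-fold, with 16.5 FPKM in Elf4-KO and 45.0 FPKM in WT. Its level was above that of Cd3e in both genotypes (4.34 FPKM in Elf4-KO, 13.3 FPKM in WT), and Cd4 was not listed. The listed locus of Zbtb7b is 1.23 times as long as the annotated gene. Which cells this RNA came from was not tested. Rora rose to 12.0 FPKM in Elf4-KO, against 2.92 FPKM in WT, and Klf2, a quiescence and trafficking factor gene that vessels express as well, rose to 82.3 FPKM in Elf4-KO, against 24.2 FPKM in WT. Bcl11b, Tbx21 and Zbtb7b were chosen after their values were seen.

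Variable segments of the receptor were listed in 5 cases, each at 0 in Elf4-KO. Trbv20 had 4.07 FPKM in WT (q = 0.00974), Trbv31 had 1.35 FPKM in WT (q = 0.0101), Trav13-1 had 2.99 FPKM in WT (q = 0.0251), Trav13-2 had 2.83 FPKM in WT (q = 0.00211) and Trav12-1 had 0.883 FPKM in WT (q = 0.0313), with every q from the authors' deposited table. Variable segments have close copies, and a listed 0 can be a failed estimate, so these values are uncertain. They were chosen after their values were seen.

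By distance over log2(FPKM + 1) in Elf4-KO and WT, the listed genes nearest to the mean of the 3 CD3 genes were Fam57a, Nhsl1, Nnt, Pafah2 and Slc5a3. Their distances were 0.0078, 0.013, 0.061, 0.070 and 0.076 on that scale. This likeness rests on 2 values per gene. In the authors' deposited table Fam57a had q = 0.0460, close to the limit for being listed, and Slc5a3 had q = 0.000998. The listed locus of Fam57a is 5.81 times as long as the annotated gene, and Slc5a3 shares its locus with Mrps6, which is also listed.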
